A study of Mus musculus with 15 samples.

Results

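The regions described here carried the enhancer mark H3K4me1 in mouse embryonic stem cells and in both kinds of expanded potential stem cell, and carried the acetylation H3K27ac in none of them. They were chosen by their peaks: overlapping or touching H3K4me1 peaks of the 3 states were merged into 124744 union regions, of which 65796 held a peak of every state ("constant" regions), and 28926 of these overlapped no H3K27ac peak of any state. The 28926 constant unacetylated regions were 23.2% of the union and 44.0% of the constant regions (exact 95% binomial interval 43.6% to 44.3%, which covers counting error only), and spanned 56.1 Mb of the genome.

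All 3 states were grown from J1, a mouse ESC line of the 129SV strain. ESCs were kept in serum medium with LIF and the 2i inhibitors CHIR99021 (GSK3) and PD0325901 (MEK), on MEF feeders or gelatin. D-EPSCs were converted from ESCs in N2B27 medium with KSR, LIF, CHIR99021, dimethindene maleate and minocycline hydrochloride, and L-EPSCs in DMEM/F12 with KSR, LIF, CHIR99021, PD0325901, A-419259, XAV939, JNK inhibitor VIII and SB203580. LIF and CHIR99021 were thus common to all 3 states, PD0325901 was common to ESCs and L-EPSCs, and 1 parental line limits what the states can stand for. ChIP-seq was done on 2 samples per mark and state with 1 input per state, 15 samples in all, but the peaks come as 1 list per state and mark. No difference below therefore has a replicate check, no test over samples could be made, and the read depth is unknown.

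H3K4me1 is laid down by the methyltransferases KMT2C and KMT2D at enhancers and on the flanks of promoters, and H3K27ac is laid down by CBP and p300 at those in use. Sites with H3K4me1 and no H3K27ac are known as primed or poised enhancers, and in pluripotent cells many lie at developmental regulators held silent by Polycomb complexes. H3K27me3, the Polycomb mark, was not analysed here, so primed and Polycomb-bound sites cannot be told apart. The lists themselves were unequal: H3K27ac had 64342 (ESC), 32782 (D-EPSC) and 26966 (L-EPSC) peaks, whereas H3K4me1 had 107222, 102751 and 105306. "Unacetylated" means only that no peak was called. As a check of cell identity, H3K27ac lay within 1 kb of the start of 24 (ESC), 23 (D-EPSC) and 20 (L-EPSC) of 26 core and naive pluripotency genes, against 35.7%, 35.3% and 28.8% of all 22350 protein-coding starts.

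For 5 regions, picked by fixed rules of width, edge constancy and isolation, 300 bases of mm9 sequence are shown with every CpG in capitals, since CpG content is one of the properties in which the regions differed. The first 3 are gene starts under H3K4me1 in all 3 states, with 270 bases before the annotated first base of the gene and 30 from it on: Sp9 (chr2:73109712-73110011, + strand), Foxb1 (chr9:69608718-69609017, - strand) and Gbx2 (chr1:91829836-91830135, - strand). The fourth lies in Rasal1 (chr5:121124548-121124847, + strand) at the region with the most constant edges, and the last in intergenic sequence (chr11:37934585-37934884, + strand) at the region farthest from any H3K27ac. The Foxb1 and Gbx2 sequences were added after their values were seen.
Sp9: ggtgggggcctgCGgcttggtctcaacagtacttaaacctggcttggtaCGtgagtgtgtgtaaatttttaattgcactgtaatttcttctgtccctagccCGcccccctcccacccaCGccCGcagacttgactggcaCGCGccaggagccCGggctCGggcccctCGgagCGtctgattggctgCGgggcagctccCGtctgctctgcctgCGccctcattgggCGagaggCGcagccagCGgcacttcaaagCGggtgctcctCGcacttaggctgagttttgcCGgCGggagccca
Foxb1: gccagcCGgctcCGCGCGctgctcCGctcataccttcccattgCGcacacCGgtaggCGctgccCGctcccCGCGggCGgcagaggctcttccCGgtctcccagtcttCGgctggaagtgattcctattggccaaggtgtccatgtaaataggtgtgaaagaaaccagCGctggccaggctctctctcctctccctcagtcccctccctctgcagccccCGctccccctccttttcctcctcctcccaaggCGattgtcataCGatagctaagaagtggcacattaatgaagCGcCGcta
Gbx2: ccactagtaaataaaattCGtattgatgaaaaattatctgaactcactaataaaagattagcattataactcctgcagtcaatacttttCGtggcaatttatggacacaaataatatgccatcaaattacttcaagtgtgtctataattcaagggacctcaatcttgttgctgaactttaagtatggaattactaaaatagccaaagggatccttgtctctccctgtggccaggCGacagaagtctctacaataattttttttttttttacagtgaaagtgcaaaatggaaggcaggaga
Rasal1: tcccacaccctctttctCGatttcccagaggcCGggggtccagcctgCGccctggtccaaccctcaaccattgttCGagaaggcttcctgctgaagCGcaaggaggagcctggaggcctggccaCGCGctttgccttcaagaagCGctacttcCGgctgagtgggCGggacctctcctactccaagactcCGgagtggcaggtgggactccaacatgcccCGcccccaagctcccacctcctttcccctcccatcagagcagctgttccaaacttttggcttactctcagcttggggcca
chr11 intergenic: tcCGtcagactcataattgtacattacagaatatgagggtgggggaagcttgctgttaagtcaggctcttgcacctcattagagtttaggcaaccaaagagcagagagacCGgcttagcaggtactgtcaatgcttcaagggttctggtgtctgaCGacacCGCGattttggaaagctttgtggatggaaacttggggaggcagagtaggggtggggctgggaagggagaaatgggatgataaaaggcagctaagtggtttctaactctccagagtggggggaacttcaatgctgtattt

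The Sp9 and Foxb1 stretches held 21 and 20 CpGs at 63.3% and 61.7% GC. The Gbx2 stretch held 3 CpGs at 34.3% GC, the Rasal1 stretch 12 at 61.7%, and the chromosome 11 stretch 5 at 48.7%. High CpG content was thus present in some of these stretches and absent from others. The whole regions differed as well. Their observed over expected CpG ratio was 0.698 at Sp9, 0.563 at Foxb1 and 0.495 at Gbx2. It was 0.316 at Rasal1 and 0.316 at the chromosome 11 region.

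Among members without any H3K27ac within 10 kb, those with the most covered bases in their least covered state lay at developmental regulators. The highest by this measure covered Sp9, a zinc finger transcription factor of limb and forebrain, at chr2:73107147-73119959 (12813 bp). H3K4me1 covered 11308 bp (ESC), 12633 bp (D-EPSC) and 10901 bp (L-EPSC), and the nearest H3K27ac of any state lay 30.4 kb away. The second covered Foxb1, a forkhead factor of the diencephalon, at chr9:69605082-69618975, with 13009, 13894 and 10463 bp covered in ESCs, D-EPSCs and L-EPSCs and the nearest H3K27ac 218 kb away. The third lay over exons of Bcor, a corepressor on the X chromosome, at chrX:11642758-11656996, with 9445, 12183 and 10490 bp covered. The fourth overlapped Nkx2-2, a homeodomain factor of the ventral neural tube, at chr2:147007672-147017701, with 8995, 9704 and 9306 bp covered. The start of Nkx2-2 lay 2.28 kb outside this region. In these 4 regions D-EPSCs had the most covered bases. That no state had under 8995 bp follows from how they were picked.

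Over gene starts covered in every state, the members highest by the same measure were those of Sp9 and Foxb1 again, followed by Gbx2 and Gsc. The Gbx2 region (chr1:91828013-91840265), at a homeobox gene of the hindbrain and of naive pluripotency, had 11665, 12159 and 10002 bp covered in ESCs, D-EPSCs and L-EPSCs. It lay 368 bp from an H3K27ac peak, so it was a member by a narrow margin. The fourth region (chr12:105708470-105718243) overlapped Gsc, the homeobox gene goosecoid of the gastrula organizer, and had 8682, 8105 and 8100 bp covered, although the gene start covered in all 3 states there was that of Gm10000.

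Members with near-identical edges were rare. In the Rasal1 region (chr5:121123563-121125810), at a Ras GTPase-activating protein, the peaks covered 2248, 2228 and 2197 bp, and a share of 0.977 of the region was common to all 3 states. The Ebf2 region (chr14:67850242-67857269), over the start of a helix-loop-helix transcription factor, had 6952, 7028 and 6819 bp covered and a common share of 0.970. The third, over Cpne7 (chr8:125640399-125642370), a copine, had 1951, 1938 and 1908 bp covered and a common share of 0.965. These 3 were picked for this property, and in each the ESC, D-EPSC and L-EPSC peaks were nearly the same interval.

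The member farthest from acetylation, 1557 kb from any H3K27ac peak, was intergenic at chr11:37934054-37935668, with 1615 bp (ESC), 1069 bp (D-EPSC) and 297 bp (L-EPSC) covered, and its nearest start, that of the teneurin gene Odz2, was 885 kb away. The next was intergenic too, at chr7:69374932-69377610, with the start of the imprinted gene Ndn 116 kb away, and had 2040, 2199 and 2368 bp covered and H3K27ac at 1532 kb. The last overlapped the imprinted gene Mkrn3 (chr7:69562697-69564737), with 839, 846 and 1336 bp covered and H3K27ac at 1345 kb. At the Mkrn3 region only 23 bp were common to the 3 states.

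Constant unacetylated regions were short. Their median width was 1589 bp (10th to 90th percentile 834 to 3401 bp), against 3149 bp in constant regions with acetylation in any state and 4682 bp in those acetylated in all 3. A typical member had 1167 bp (ESC), 1143 bp (D-EPSC) and 1068 bp (L-EPSC) covered, and 24833 of them (85.9%) held a single peak in each state. Sorted into quintiles by width, from 294 to 1269 bp up to 4516 to 89646 bp, 73.8%, 60.4%, 46.6%, 29.6% and 9.53% of constant regions were members. The rule itself contributes to that order, since a longer region has more bases in which an H3K27ac peak can fall.

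**Figure D1:**
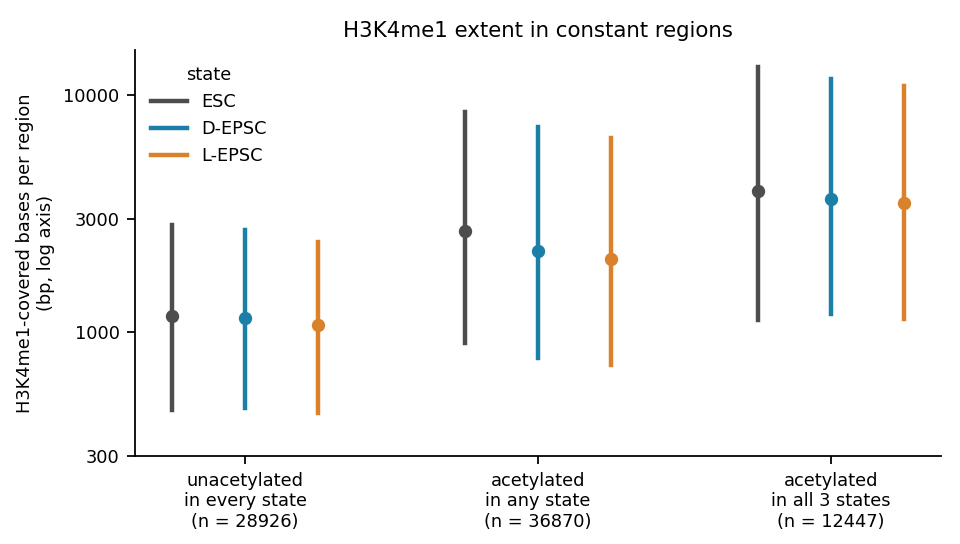
H3K4me1-covered bases per constant region in each state (bp, log axis) for the 28926 unacetylated regions, the 36870 acetylated in any state and the 12447 acetylated in all 3, with points for medians and lines from the 10th to the 90th percentile. Medians of the unacetylated regions lay between 1068 and 1167 bp in the 3 states, below those of both acetylated classes.

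The rule did not use the extent of H3K4me1 directly, and the median extent moved little between states at these regions. Extent was not independent of the rule, since wider constant regions were more often acetylated and the ESC H3K27ac list was the longest. At single members the log2 ratio of D-EPSCs over ESCs had 10th and 90th percentiles of -1.10 and 1.07. At constant regions with acetylation in any state they were -1.13 and 0.54. The median log2 ratio of covered bases was -0.03 for D-EPSCs over ESCs, -0.13 for L-EPSCs over ESCs and -0.09 for L-EPSCs over D-EPSCs. At constant regions with acetylation in any state these medians were -0.17, -0.30 and -0.10, and at those acetylated in ESCs alone they were -0.45 and -0.59 for D-EPSCs and L-EPSCs over ESCs. Where acetylation was present in all 3 states they were -0.06 and -0.14, close to the values of the unacetylated regions. The value for D-EPSCs over ESCs was too near 0 to carry a direction: it was 0.016 when members with H3K27ac within 5 kb were left out, 0 with the D-EPSC H3K27ac list ignored and -0.17 with the ESC H3K27ac list ignored. The value for L-EPSCs over ESCs stayed negative but ran from -0.053 with no H3K27ac within 5 kb to -0.29 with the ESC H3K27ac list ignored, and was -0.23 with lists of equal length.

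Single regions changed in both directions. D-EPSCs had at least 2-fold more covered bases than ESCs at 3197 members (11.1%, against 7.02% of all constant regions) and at least 2-fold fewer at 3447 (11.9%, against 12.2%). L-EPSCs had at least 2-fold more than ESCs at 2874 (9.94%, against 6.58%) and fewer at 4366 (15.1%, against 16.6%). Between the EPSCs, L-EPSCs had at least 2-fold more than D-EPSCs at 1767 (6.11%, against 5.14%) and fewer at 2811 (9.72%, against 8.61%). Relative to that background, members with a larger EPSC extent were the more frequent, and members with a smaller one were near the background share. That background includes the constant regions acetylated in ESCs alone, which the rule leaves out. Of these, 1.63% were at least 2-fold higher and 24.1% at least 2-fold lower in D-EPSCs than in ESCs. The higher share among members is thus not independent of the rule. Both EPSCs were at least 2-fold above ESCs at 1969 members (6.81%, against 4.25%) and at least 2-fold below at 1668 (5.77%, against 6.47%), while all 3 states lay within 2-fold of each other at 17736 (61.3%, against 65.9%). These ratios share the ESC list, and a narrow region crosses 2-fold with fewer bases than a wide one.

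**Figure D2:**
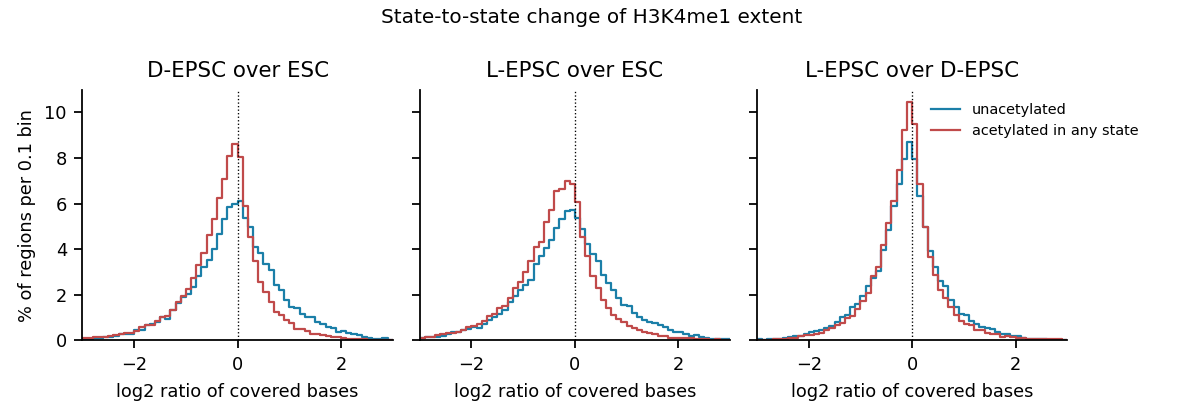
Distribution of the log2 ratio of H3K4me1-covered bases for each pair of states, in bins of 0.1, for the 28926 unacetylated constant regions (blue) and the 36870 acetylated ones (red). The unacetylated regions centred at -0.03, -0.13 and -0.09, with a longer right-hand tail over ESCs than the acetylated regions.

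The same region did not mean the same bases. At least 1 base was common to the peaks of all 3 states in 28539 members (98.7%), and in 387 the states touched the region at different bases. The common part had a median of 669 bp and a median share of 0.449 of the region (0.516 at acetylated constant regions). Among members with 1 peak per state the median shift of a peak edge was 204 bp between D-EPSCs and ESCs, 223 bp between L-EPSCs and ESCs, and 140 bp between the EPSCs. Only 196 members kept a common share of at least 0.9.

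Acetylation was often not far away. The median distance to the nearest H3K27ac peak was 10.8 kb, and the nearest peak came from the ESC list for 64.0% of members. By state the medians were 13.5 kb (ESC), 23.2 kb (D-EPSC) and 32.5 kb (L-EPSC), in the order of the list lengths. An H3K27ac peak lay within 1 kb of 3615 members (12.5%), whereas 14975 (51.8%) had none within 10 kb and 2529 none within 100 kb. At the edge of the rule, 368 members lay within 50 bp of an H3K27ac peak and 10 touched one, and 340 constant regions were left out with at most 50 acetylated bases, the least being 1.

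Members formed runs along the chromosomes, counted as successive constant regions without an acetylated one between them. The 28926 members fell into 12242 runs, of which 186 held at least 10. The longest held 22 members over 2537 kb of chromosome 5, from chr5:97819958 to 100357054, with Prdm8, Fgf5 and Bmp3 among its 12 genes. A run of 21 in 185 kb lay at Polg and Rhcg on chromosome 7, and another of 21 at Sdk2, a cell adhesion gene, on chromosome 11. The Hoxb cluster, from Hoxb9 to Hoxb1 with the neighbouring Skap1, formed a run of 20 in 302 kb (chr11:96130584-96432693).

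Relative to protein-coding genes, 6924 members (23.9%) lay within 1 kb of a start site, 4931 (17.0%) overlapped an exon elsewhere, 6655 (23.0%) were intronic and 10416 (36.0%) intergenic. The share at start sites was 26.8% for acetylated constant regions, 15.9% for unacetylated regions of both EPSCs and not ESCs, and 1.20% for those of ESCs only. It rose with width among members, from 16.9% in the narrowest quintile to 49.6% in the widest, whereas acetylated constant regions of the same quintiles had 34.8% and 33.0%. A UTR was overlapped by 6355 members (22.0%).

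At gene starts the 3 states differed. Of 22350 protein-coding genes, 6814 had a member within 1 kb of the start (30.5%), and 4243 of these had no H3K27ac of any state within 1 kb. The first base of those 4243 genes was under H3K4me1 for 27.7% (ESC), 62.1% (D-EPSC) and 67.9% (L-EPSC). In ESCs the coverage peaked at 47.3% 500 bp upstream and 50.8% 1000 bp downstream, with a dip between, while in D-EPSCs and L-EPSCs the peaks lay 300 bp upstream (67.4% and 69.2%) and 700 and 600 bp downstream (72.4% and 75.6%). The first base was covered in all 3 states at 1034 genes, in both EPSCs and not ESCs at 1416, and in ESCs alone at 52. Over all 22350 starts it was covered for 11.4% (ESC), 26.2% (D-EPSC) and 31.8% (L-EPSC), with 2026 covered in every state, 3274 in both EPSCs and not ESCs, and 250 in ESCs alone. Where a member and H3K27ac both lay within 1 kb of the start (2571 genes), the first base was covered at 0.895%, 2.37% and 3.35%, and at 7148 starts with an acetylated constant region and no member at 16.6%, 34.1% and 45.4%. The low values of the 2571 follow in part from the rule, since no member reaches into an H3K27ac peak. The highest coverage downstream was larger at those starts (81.7%, 89.7% and 91.6%, at 1600, 1300 and 1000 bp) and at the 7148 (71.3%, 76.5% and 78.1%) than at the 4243. The first base was covered least often in ESCs and most often in L-EPSCs in all 3 groups, as over all starts.

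**Figure D3:**
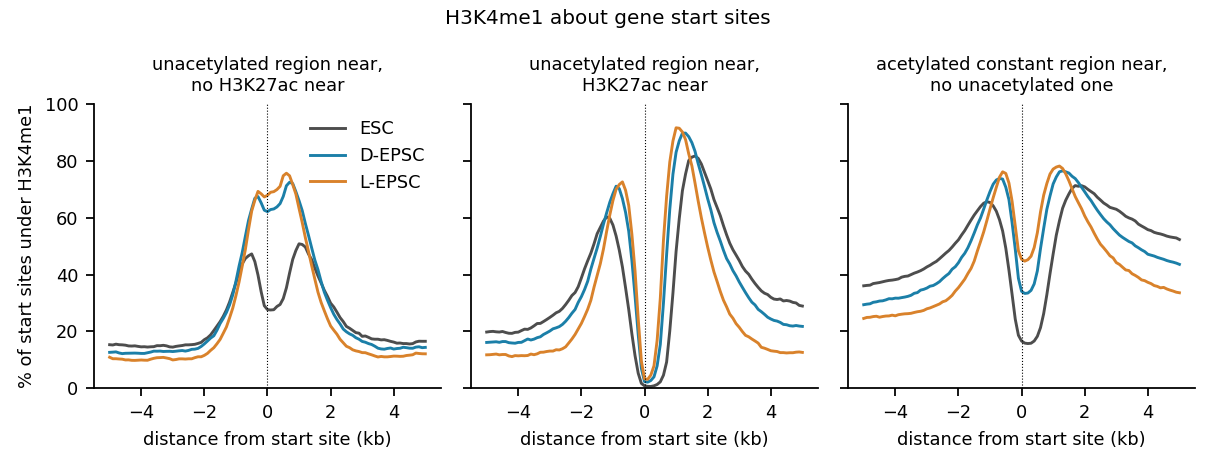
Percent of gene starts under an H3K4me1 peak by distance from the start (kb, negative upstream), in the 3 states, for 4243 starts with an unacetylated constant region and no H3K27ac within 1 kb, 2571 with both, and 7148 with an acetylated constant region and no unacetylated one. At the start itself, ESCs reached 27.7% in the first group, against 62.1% in D-EPSCs and 67.9% in L-EPSCs.

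Members were richer in G and C than acetylated constant regions. Their median GC content was 47.9%, against 45.8%, and was higher in each quintile of width (47.1% against 44.7% in the narrowest, 49.5% against 46.4% in the widest). The observed over expected CpG ratio had a median of 0.278, against 0.232, and 1296 members (4.48%) reached 0.6, a usual limit for CpG islands, against 0.372% of acetylated regions. Unacetylated regions of both EPSCs and not ESCs were higher than members, with 48.7% GC, a ratio of 0.292 and 9.20% reaching 0.6. Those of ESCs only were lower, with 46.6%, 0.210 and 0.577%. Over 10 kb from any start, 17268 members had a median GC content of 47.3% and a ratio of 0.252, so the difference from acetylated regions (45.7% and 0.216) was smaller there. Within 500 bp of the 4243 unacetylated starts, 2335 (55.0%) reached a ratio of 0.6. This share was 24.4% for the 1034 starts covered by H3K4me1 in every state, 63.6% for the 1416 covered in the EPSCs only, and 71.5% for the 1125 covered in no state. It was 93.2% for the 2571 starts with a member and H3K27ac, 67.2% for 6965 with H3K27ac and no member, and 45.6% for all starts.

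Letter motifs of 20 transcription factor families were counted in the 300 bases about each region's midpoint, on both strands. The GC box GGGCGG was present in 15.5% of members, 7.80% of acetylated constant regions and 10.5% of all union regions, the TFAP2 pattern GCCNNNGGC in 10.2%, 7.62% and 8.49%, and the CTCF core AGGGGGC in 6.30%, 4.42% and 5.03%. In unacetylated regions of both EPSCs and not ESCs these 3 motifs were more frequent than in members, at 18.4%, 12.7% and 7.07%. In those of ESCs only they were found in 7.54%, 6.25% and 3.77%. The 3 motifs are made mostly of G and C, and the window is a smaller part of a wide region than of a narrow one. The POU octamer ATGCAAAT, bound by OCT4 and other POU factors, was found in 2.67% of members, 2.00% of acetylated and 2.54% of all regions, and the SOX motif ACAATGG in 4.45%, 4.69% and 4.91%. AP-1 (TGACTCA) had 5.12%, 6.16% and 5.88%, AGATAAG, the motif of GATA factors, 3.27%, 3.92% and 3.56%, and the homeobox core TAATTA 7.05%, 7.94% and 7.39%. The other 12 motifs are KLF (GGGTGTGG), ESRRB (TCAAGGTCA), TCF/LEF (ATCAAAG), CRE (TGACGTCA), TEAD (GGAATGT), FOX (TGTTTAC), PBX/HOX (TGATTGAT), the E-boxes CAGCTG and CACGTG, ETS (CCGGAAG), NRF1 (GCGCATGCG) and RFX (GTTGCCA). Their shares of members ran from 0.252% (NRF1) to 17.0% (CAGCTG), and the letters of one motif can overlap those of another. A match of letters is not a bound site.

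Genes were then taken by list, each gene with 10 kb on both sides. A member lay at 13035 of 22350 protein-coding genes (58.3%), and within 1 kb of the start at 6814 (30.5%). Of the 49721 constant regions at any gene 42.9% were unacetylated. This share ran from 14.4% to 82.7% over 16 gene lists, and the lists share some genes. It was highest for neural and ectoderm regulators, followed by protocadherins, mesoderm and endoderm regulators and Hox genes, whose exact intervals overlapped, and lowest for core and naive pluripotency genes, followed by vomeronasal receptors, Polycomb repressive complex 2 and ribosomal protein genes, whose intervals overlapped as well.

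Of 46 neural and ectoderm regulators, 44 had a member (95.7%, against 58.3% of all genes) and 39 had one at the start site (84.8%, against 30.5%). Of their 196 constant regions 162 were unacetylated (82.7%, exact interval 76.6% to 87.7%). At 33 genes no constant region was acetylated. Tshz2, a zinc finger factor, had 20 members among 33 constant regions, which covered 34.1 kb (ESC), 26.3 kb (D-EPSC) and 29.5 kb (L-EPSC). Meis2, a homeodomain cofactor of HOX proteins, had 10 of 17, with 21.4, 22.4 and 19.8 kb. Pax2, a paired-box factor of kidney and midbrain, had 8 of 9, with 15.7, 18.1 and 13.0 kb, and Zeb2, a repressor active in neural crest, had 8 of 8, with 7.76, 15.8 and 10.3 kb and no H3K27ac within 51.4 kb. ESCs had the most covered bases at Tshz2 and the fewest at Zeb2, so these genes did not share one order of states. Over the list's members the median log2 ratio was 0.40 for D-EPSCs over ESCs and 0.13 for L-EPSCs over ESCs. At 40 of 162 members D-EPSCs were at least 2-fold higher and at 7 lower, against 11.1% and 11.9% of all members. The first base was under H3K4me1 at 8 (ESC), 32 (D-EPSC) and 35 (L-EPSC) of the 39 unacetylated starts. Over all 4243 such starts the shares were 27.7%, 62.1% and 67.9%, in the same order of states.

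Of 32 mesoderm and endoderm regulators, 30 had a member, 24 at the start, and 72 of 92 constant regions were unacetylated (78.3%). Gata4, a zinc finger factor of heart and endoderm, had 6 members of 7 constant regions, with 9.01 kb (ESC), 11.1 kb (D-EPSC) and 9.47 kb (L-EPSC) covered. Foxf1a, a forkhead factor of lateral mesoderm, had 4 of 4 with 3.23, 11.5 and 5.76 kb, Hand2, a heart and limb helix-loop-helix factor, 4 of 4 with 7.14, 10.6 and 7.87 kb, and Isl1, a LIM homeodomain factor, 4 of 4 with 2.93, 5.30 and 3.70 kb. D-EPSCs had the most covered bases at all 4 of these genes. Tbx5, a heart and limb T-box factor that also had 4 of 4 and follows them only by symbol, went the other way, with 9.69 kb (ESC), 5.69 kb (D-EPSC) and 4.59 kb (L-EPSC). The H3K27ac nearest to a member lay 816 kb away at Isl1 and 132 kb away at Hand2. The list's median log2 ratio was 0.36 for D-EPSCs and -0.01 for L-EPSCs over ESCs.

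Of 39 Hox genes, the clustered homeobox genes of the body axis, 36 had a member (92.3%, against 58.3% of all genes). A member at the start was present at 29 (74.4%, against 30.5%), and 50 of 65 constant regions were unacetylated (76.9%). Hoxa3 had 8 of 13, with 21.7 kb (ESC), 22.5 kb (D-EPSC) and 20.5 kb (L-EPSC) covered. Hoxd11 had 7 of 7 with 16.7, 17.7 and 12.2 kb, Hoxa13 6 of 6 with 18.8, 15.8 and 12.6 kb, and Hoxd3 6 of 7 with 10.7, 12.1 and 8.34 kb. L-EPSCs had the fewest covered bases at all 4. Over the list the median log2 ratio was 0.06 for D-EPSCs and -0.22 for L-EPSCs over ESCs. At 12 of 50 members L-EPSCs were at least 2-fold lower and at 4 higher, against 15.1% and 9.94% of all members. Neighbouring Hox genes share regions, so their counts are not separate.

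Of 43 Wnt, BMP, FGF, Hedgehog and Notch ligands, 36 had a member (83.7%, against 58.3% of all genes). A member at the start was present at 29 (67.4%, against 30.5%), and 91 of 136 constant regions were unacetylated (66.9%). Bmp7 had 8 members of 12 constant regions, with 13.9 kb (ESC), 16.7 kb (D-EPSC) and 18.4 kb (L-EPSC) covered. Wnt5a, a ligand of noncanonical Wnt signalling, had 5 of 5 with 7.16, 12.7 and 11.7 kb and no H3K27ac within 123 kb, its relative Wnt5b 5 of 9 with 6.98, 4.00 and 3.99 kb, and Bmp6 4 of 4 with 5.55, 6.03 and 6.20 kb. Wnt5a and Wnt5b thus differed in direction between the states. Median log2 ratios over the list were 0.29 for D-EPSCs and 0.13 for L-EPSCs over ESCs.

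Cell surface genes of the nervous system were taken as a pair of lists. Of 40 axon guidance and synaptic adhesion genes, 36 had a member, against 58.3% of all genes, and 146 of 269 constant regions were unacetylated (54.3%). The genes of this list are long, with a median span with flanks of 396 kb, against 35.4 kb over all genes. They held fewer members per length, 6.81 per Mb against 17.0 over all genes. The count of 36 is thus not independent of gene length. Ephb2, an ephrin receptor, had 20 of 30, with 34.1, 26.0 and 28.8 kb covered in ESCs, D-EPSCs and L-EPSCs, the cadherin gene Cdh4 11 of 15 with 13.8, 15.0 and 12.1 kb, and Slit3, a guidance ligand, 11 of 22 with 11.9, 10.4 and 14.3 kb. Protocadherins had a member at 25 of 35 genes (71.4%, against 58.3% of all genes), and 47 of 60 constant regions there were unacetylated (78.3%). Pcdhgc5, of the gamma cluster, had 17 of 25, with 31.0, 30.4 and 32.0 kb covered, and Pcdh1 6 of 7, with 11.8, 14.2 and 9.74 kb. The annotated span of Pcdhgc5 with flanks was 187.5 kb, against a median of 23.8 kb over the list.

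Of 15 trophoblast regulators, 13 had a member (86.7%, against 58.3% of all genes), and 65 of 141 constant regions were unacetylated (46.1%). Fgfr2, the receptor for FGF signals in trophoblast, took 38 of these 65 members among 97 constant regions, because its annotated span with flanks is 3029 kb and runs over neighbouring genes. Gata2 and Gata3, zinc finger factors of trophectoderm, each had 5 of 6, with 12.2, 11.8 and 10.1 kb covered at Gata2 and 11.2, 15.8 and 13.1 kb at Gata3 in ESCs, D-EPSCs and L-EPSCs. Cdx2, the homeobox factor of the same lineage, had 3 of 3, with 13.1, 12.3 and 10.6 kb, a first base under H3K4me1 in every state and no H3K27ac within 91.9 kb.

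Formative and primed epiblast genes had a member at 8 of 18 (44.4%, against 58.3% of all genes), and 22 of 52 constant regions were unacetylated (42.3%). Dnmt3a, a de novo DNA methyltransferase, had 10 of 12, with 13.5 kb (ESC), 17.3 kb (D-EPSC) and 11.1 kb (L-EPSC) covered. Lef1, a Wnt effector, had 3 of 4 with 4.30, 11.6 and 3.28 kb, Pou3f1, the POU factor OCT6, 3 of 3 with 4.84, 9.51 and 5.20 kb, and Dnmt3b 2 of 3 with 5.11, 6.07 and 1.66 kb. D-EPSCs had the most covered bases at all 4 genes. The list's median log2 ratio was 0.77 for D-EPSCs over ESCs, with 10 of 22 members at least 2-fold higher and 0 lower. For L-EPSCs over ESCs it was -0.06, with 4 higher and 4 lower. Over all members, 11.1% were at least 2-fold higher and 11.9% lower in D-EPSCs, and 9.94% and 15.1% in L-EPSCs. Dnmt3a alone held 10 of the list's 22 members, so these values rest on few genes.

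Core and naive pluripotency genes had the lowest share of the 16 lists. All 26 had a constant region, but only 7 had an unacetylated one (26.9%, against 58.3% of all genes). Of the 90 constant regions 13 were members (14.4%, exact interval 7.92% to 23.4%). Esrrb, an orphan nuclear receptor, had 5 of 11, with 7.03, 9.78 and 9.63 kb covered in ESCs, D-EPSCs and L-EPSCs, and Gbx2 had 3 of 3. The other genes with a member, Lin28a and Nr0b1 among them, had 1 each. The list's share was 28.9% with lists of equal length and 34.4% with the ESC H3K27ac list ignored. All genes then had 56.3% and 64.5%, so the list's share stayed the lower in both. In the middle quintile of widths, 3 of the list's 12 constant regions were members (exact interval 5.49% to 57.2%). That interval covers the 47.6% of all genes in this quintile. At matched width the list could thus not be separated from all genes with so few regions.

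Among genes of the marks themselves, 25 of 84 constant regions at 13 enhancer-modifying enzymes were members (29.8%), with 3 of 4 at the demethylase Kdm6a and 3 of 10 at the methyltransferase gene Mll3, and 11 of 50 at 11 Polycomb repressive complex 2 genes (22.0%), with 3 of 4 at Phf19 and 2 of 4 at Eed. Genes of cytoplasmic ribosomal proteins, expressed in every cell, had members at 43 of 80 (53.8%, near the 58.3% of all genes). Their share was 62 of 265 (23.4%), with 5 of 6 at Rpl11, at a median of 0.348 kb from H3K27ac, and 3 of 7 at Rpl24. Of 1087 olfactory receptor genes, which are silent outside the nose, 48 had a member (4.42%, against 58.3% of all genes). Of their 116 constant regions 49 were unacetylated (42.2%), with 3 of 3 at Olfr56 and 2 of 4 at Olfr15. Vomeronasal receptors had 6 of 35 (17.1%) at 319 genes, with 1 of 2 at Vmn1r1 and 1 of 1 at Vmn1r197, and keratins 15 of 26 (57.7%) at 46 genes, with 3 of 3 at Krt18 and 2 of 2 at Krt1. The 25 genes that the study discusses, which are not independent of these samples, had 74 of 229 (32.3%), with the most at Fgfr2, Dnmt3a and Esrrb, described above, and then 4 of 4 at Rxrg, a retinoid receptor.

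**Figure D4:**
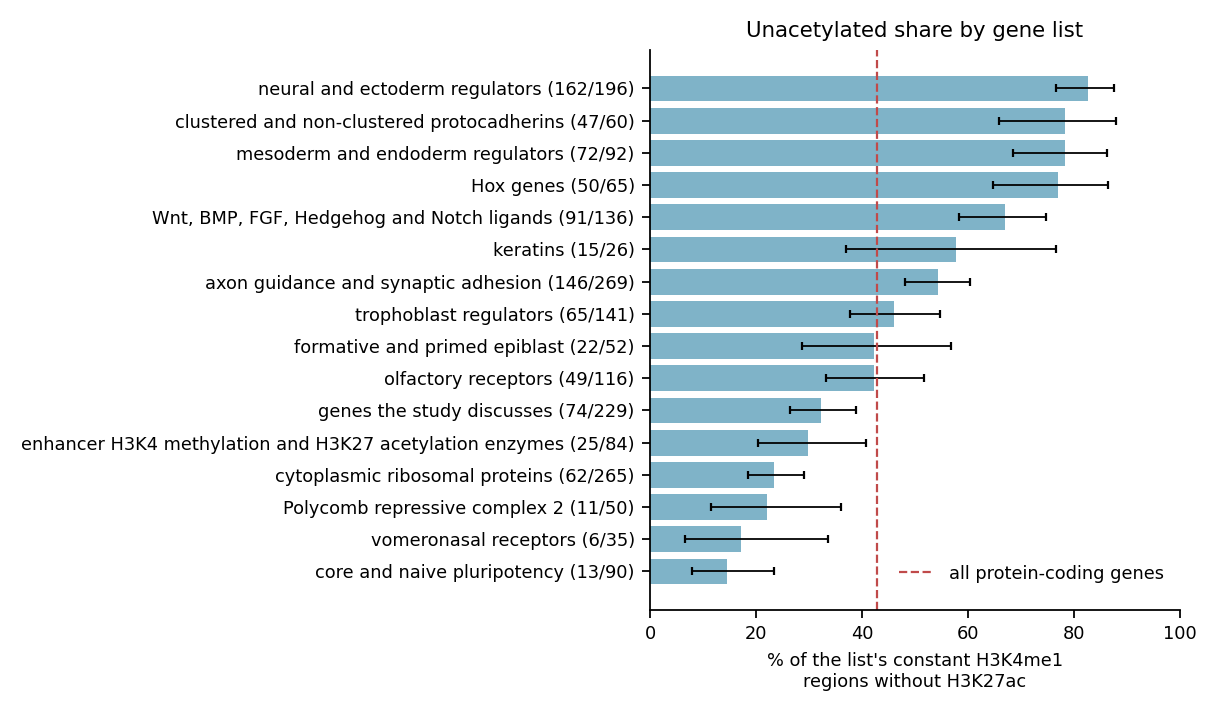
Percent of the constant H3K4me1 regions at each list's genes (gene and 10 kb on both sides) without H3K27ac in any state, with exact 95% binomial intervals for counting error and, in brackets, unacetylated over constant regions. Neural and ectoderm regulators stood at 82.7% and core and naive pluripotency genes at 14.4%, against 42.9% over all protein-coding genes (dashed line).

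By number alone, the genes with the most members were long ones. Gm20388, annotated over 4455 kb with flanks and spanning many other genes of chromosome 8, had 163, Fgfr2 38, Arfip1 29, Camta1, a transcription activator, 24, and Tiam1, a guanine nucleotide exchange factor, 22. Wwox had 21, Agap1, Ephb2 and Tshz2 20 each, and Arhgap26 18. Of these 10, Ephb2 had the most members per length, 9.60 in 100 kb.

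The X chromosome stood apart from the autosomes. Of its 856 constant regions 499 were unacetylated (58.3%), against 40.1% to 47.4% on the 19 autosomes, and among regions of the second width quintile alone, 71.9% against 54.8% to 65.4%. X members also had more H3K4me1 in D-EPSCs: their median log2 ratio was 0.35 for D-EPSCs and 0.05 for L-EPSCs over ESCs, outside the ranges of the autosomes (-0.11 to 0.07, and -0.20 to -0.05). At 124 of 499 X members D-EPSCs had at least 2-fold more covered bases than ESCs, and at 35 at least 2-fold fewer. Among the 28427 autosomal members these counts were 3073 and 3412. Elf4, an ETS factor, had the most X members (8 of 8), followed by Atrx, a chromatin remodeller (5 of 6), Bcor (5 of 8), Gpc3, a glypican (5 of 7), and Nhsl2 (5 of 6). These 5 genes were picked after their values were seen. Fewer union regions were constant on X (35.4%, against 50.6% to 56.1%), so the chromosome differed from the autosomes before acetylation was considered.

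**Figure D5:**
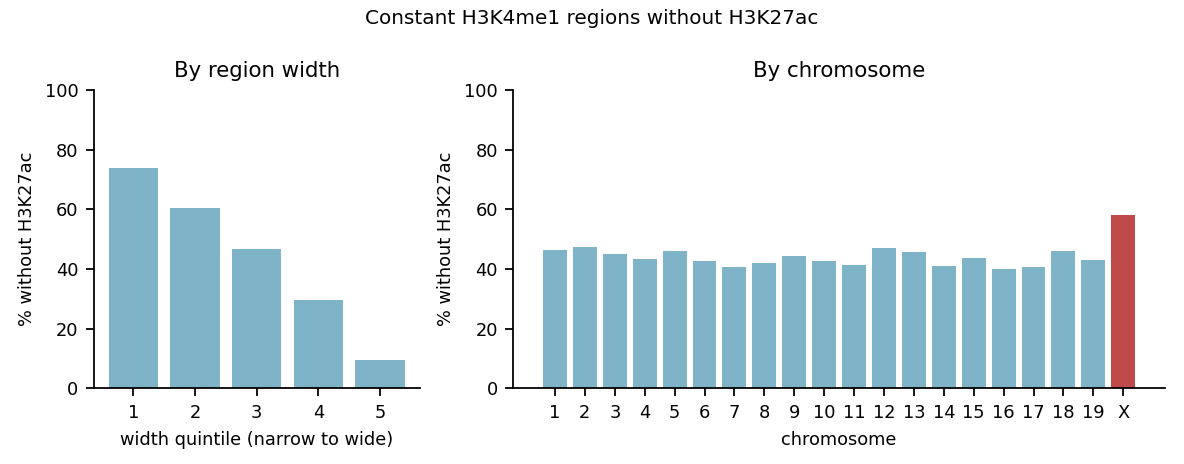
Percent of constant H3K4me1 regions without H3K27ac in any state, by quintile of region width (left, from narrow to wide) and by chromosome (right). The share fell from 73.8% in the narrowest quintile to 9.53% in the widest, and was 58.3% on X, in red, against 40.1% to 47.4% on the autosomes.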

How the data were processed

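ChIP-seq for H3K4me1 (antibody ab8895) and H3K27ac (ab4729) was analysed in ESCs, D-EPSCs and L-EPSCs. Per the submitters' notes and the study's methods, the authors trimmed reads with Trim Galore 0.6.3 and cutadapt, checked them with FastQC 0.10.1, aligned them to mm9 with Bowtie2 2.3.5, sorted them with SAMtools 1.10 and called MACS2 broad peaks against input. HOMER is named as well. The deposited lists give peak starts and ends only, with no score, count or signal per peak, and the call threshold and any pooling of the 2 samples are not given in the sources used here. Both set how many peaks a list holds, as does read depth, which is unknown.

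Members were found by joining overlapping or touching H3K4me1 peaks. Covered bases of a state were the bases of a region under its peaks. No peak passed the end of an NCBIM37 (mm9) chromosome. Genes, exons and UTRs came from GENCODE M1, built on NCBIM37, with older symbols matched through RefSeq. A start site was the first annotated base of a protein-coding gene. The number of per-sample columns left unused was 0. With 1 list per state and mark, comparisons are values side by side with no test.

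Named regions were the 4 with the largest smallest-of-3-states covered bases among members with no H3K27ac within 10 kb, the 4 largest by the same measure over a gene start covered in every state, the 3 members of at least 1 kb with the highest common share and the 3 farthest from H3K27ac. From each list the 2 to 4 genes with the most members are named, with ties taken by symbol, and of all protein-coding genes the 10 with the most. A gene that this rule would name among the enhancer-modifying enzymes is not reported here, and Tbx5 was added after its values were seen. The members and lists were chosen with earlier results of these data known. The interval code was tested on simulated data, with 20 of 20 runs equal to a base-by-base count. Python 3.11.15, numpy 2.4.6, pandas 2.3.3, scipy 1.17.1 and matplotlib 3.10.9 were used.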

Additional observations from a re-analysis of the deposited data

How the results depend on the processing

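No paired analysis was possible because each state has a single list for a mark, so no value carries a replicate number. For the same reason no replicate could be left out. The number of members stayed within 1.5 times of 28926 (19387 to 42634) except with the widest 50% of each list, which left 12232. The unacetylated share of constant regions was 45.5% with peaks of at least 500 bp only, 38.5% and 29.5% with no H3K27ac allowed within 1 kb and 5 kb, 43.0% with H3K4me1 peaks joined over 1 kb, 57.1% with lists of equal length, 39.1% with the widest 50%, and 64.8%, 47.0% and 44.9% with the ESC, D-EPSC or L-EPSC H3K27ac list ignored. The share of members at start sites was 26.0%, 17.3%, 18.2%, 19.2%, 22.3% and 29.7% under the first 6 of these, 21.8% and 24.8% with the ESC or D-EPSC H3K27ac list ignored, and 17.9% and 26.8% with windows of 500 bp and 2500 bp.

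The median log2 ratio of D-EPSCs over ESCs was near 0 and reversed to 0.016 with no H3K27ac within 5 kb. It was 0 with the D-EPSC H3K27ac list ignored, -0.040 with peaks of at least 500 bp, -0.044 with no H3K27ac within 1 kb, -0.038 with joined peaks, -0.12 with lists of equal length, -0.073 with the widest 50% and -0.17 with the ESC H3K27ac list ignored. For L-EPSCs over ESCs it was -0.14 with peaks of at least 500 bp, -0.053 with no H3K27ac within 5 kb, -0.23 with lists of equal length, -0.21 with the widest 50%, and -0.29, -0.12 and -0.12 with the ESC, D-EPSC or L-EPSC H3K27ac list ignored. For L-EPSCs over D-EPSCs it was -0.080 and -0.070 with no H3K27ac within 1 kb and 5 kb, -0.085 with joined peaks, -0.11 with the widest 50%, and -0.11 and -0.086 with the D-EPSC or L-EPSC H3K27ac list ignored. Fewer peaks enter by construction with the widest 50%, and the cause of the other shifts was not tested. A base common to all 3 states, or chromosomes 1 to 19 alone, kept every one of these values inside its interval. The gene list shares under lists of equal length, ignored H3K27ac lists, a 5 kb distance, no flank or the middle quintile of widths were chosen after seeing the data: neural and ectoderm regulators had 74.5% to 88.4%, mesoderm and endoderm regulators 68.5% to 88.0%, Hox genes 67.7% to 89.2%, core and naive pluripotency genes 6.67% to 34.4% and all genes 26.8% to 64.5%. Peak lists without depth cannot show a level of either mark below the call threshold.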
